A study of Mus musculus with 7 samples.

Results

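Endoplasmic reticulum associated degradation (ERAD) is the route by which misfolded proteins are taken out of the endoplasmic reticulum (ER) and destroyed. The 39 genes described here encode its parts and were taken by name from a list of ERAD genes. They and the related lists below were chosen with earlier results of these data known, so the shares called are descriptions. Each of the 39 was found by its Ensembl identifier among the 48795 genes of the deposited table. They were compared between memory B cells (MBCs; 3 libraries) and plasma cells (PCs; 4 libraries), sorted from spleens of female wild-type C57BL/6 mice aged 8 to 12 weeks, on day 10 after intravenous sheep red blood cells (SRBCs). Splenocytes were first passed over CD43 MicroBeads. MBCs were sorted as B220+ CD138- IgD- CD38+ CD273+ and PCs as B220lo CD138+ IgD-. All mice were immunized, so the comparison is between cell types of the same response and holds no unimmunized control.

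In ERAD, mannosidases trim the sugars of misfolded glycoproteins, and lectins read the trimmed sugar and pass the protein to a membrane complex built around the ubiquitin ligase HRD1. The protein is drawn through the membrane, tagged with ubiquitin by conjugating enzymes (E2s) and ligases (E3s), pulled out by the p97 ATPase and handed to the proteasome. PCs make and secrete antibody in bulk and are known for an enlarged ER. Several ERAD genes are known targets of the unfolded protein response, in which the factors XBP1 and ATF6 bind short elements near gene starts.

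The promoters of the members were searched for 3 such elements, because they show which ERAD genes carry the letters read by these factors, and for the amino acid response element, which other factors read. RefSeq promoters (GRCm38.p6) were found for 32 of the 39 members, and the 250 bases before the start site were read on both strands. The ER stress response element ERSE (CCAAT, then 9 bases of any kind, then CCACG) was present in Derl3 and Syvn1 and in 0.113% of 32851 promoters. ERSE-II (ATTGG, 1 base of any kind, then CCACG) was present in Herpud1 and in 0.0304% of promoters. The Herpud1 window also ends in the letters of an ERSE up to its last base. That base lies past the window and was not read, so an ERSE there was neither counted nor excluded. The unfolded protein response element UPRE (TGACGTGG) was present in Ube2j1 and Vcp and in 0.563% of promoters. The amino acid response element (TGATGNAAT) was in 0 of the 32 members and in 0.816% of promoters, which says only that these letters are not in these windows. No match overlapped another. A match is a description of letters and not of binding. In the 4 sequences below, written 5′ to 3′ on the strand of the gene, capitals mark the element.
Derl3, chr10:75893148-75893397, plus strand: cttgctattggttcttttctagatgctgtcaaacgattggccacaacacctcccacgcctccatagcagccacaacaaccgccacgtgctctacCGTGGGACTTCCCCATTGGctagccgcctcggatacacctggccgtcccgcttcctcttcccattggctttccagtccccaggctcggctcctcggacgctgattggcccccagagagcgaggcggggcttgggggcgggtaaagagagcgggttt
Herpud1, chr8:94386179-94386428, plus strand: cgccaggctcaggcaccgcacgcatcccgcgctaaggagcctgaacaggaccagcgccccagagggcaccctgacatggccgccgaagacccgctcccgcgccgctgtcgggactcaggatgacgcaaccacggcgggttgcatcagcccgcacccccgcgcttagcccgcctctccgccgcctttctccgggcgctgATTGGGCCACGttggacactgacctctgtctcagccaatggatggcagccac
Syvn1, chr19:6046326-6046575, plus strand: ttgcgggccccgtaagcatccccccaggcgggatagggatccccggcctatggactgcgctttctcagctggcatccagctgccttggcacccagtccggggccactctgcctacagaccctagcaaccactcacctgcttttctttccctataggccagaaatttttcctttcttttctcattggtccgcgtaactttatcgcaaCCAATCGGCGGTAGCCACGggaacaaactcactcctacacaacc
Vcp, chr4:43000508-43000757, minus strand: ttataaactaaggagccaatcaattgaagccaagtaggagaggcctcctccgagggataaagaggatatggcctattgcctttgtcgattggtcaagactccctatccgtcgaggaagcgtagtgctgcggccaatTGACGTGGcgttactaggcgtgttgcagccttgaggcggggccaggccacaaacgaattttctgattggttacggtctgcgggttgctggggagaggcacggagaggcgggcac
The element of Ube2j1 reads CCACGTCA at chr4:33031312-33031319 on the plus strand, and only its 8 bases are shown because they lie within an annotated exon. In Derl3 and Ube2j1 the element is on the strand opposite to the gene. All 5 genes were among the 17 of 38 members tested (44.7%) that rose in PCs in the comparison that follows, where 6.41% of all genes did. Of the 7 fits that left out a library, Vcp was called in 1 and Syvn1 in 3.

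**Figure D1:**
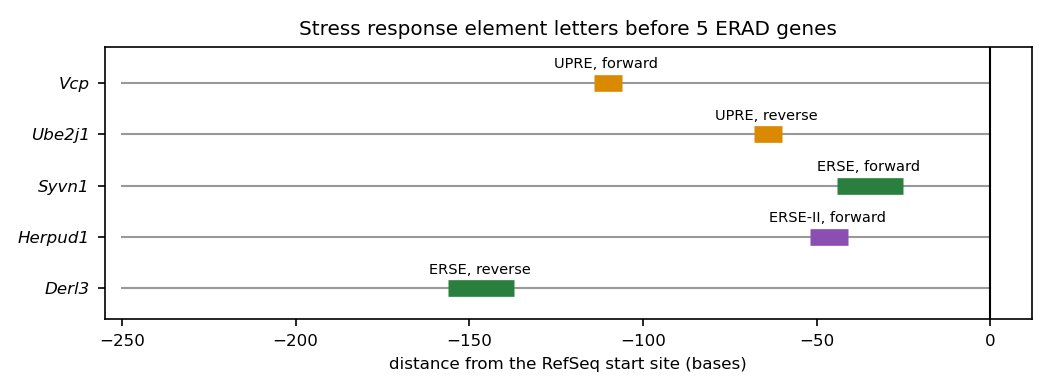
Position of each element in the 250 bases before the RefSeq start site (at 0) of 5 ERAD genes, with the distance in bases on the x axis and the strand of the match relative to the gene. The elements of Herpud1 and Syvn1 lie closest to the start site, from 52 and 44 bases before it, and that of Derl3 lies farthest, from 156 bases before it.

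Immunoglobulin transcripts filled 49.4 to 55.9% of the PC libraries and 1.65 to 3.16% of the MBC libraries, so each library's TPM (a transcript's level per length, set to the same library total in all libraries) was divided by a median ratio to give scaled TPM. The 5 marker genes of PCs, of which Sdc1 encodes the sorted CD138, summed to 8860 to 15500 scaled TPM in PCs and 92.8 to 258 in MBCs, and Sdc1 alone was at 49.6 to 78.1 in PCs. MBC replicate 3 stood apart in several marker sums. Its MBC markers summed to 25.3 scaled TPM, against 362 and 452 in the other MBC libraries and 15.3 to 30.3 in PCs. Cd38, which encodes the sorted CD38, was at 6.77 in it, against 130 and 186 in those libraries and 9.89 to 21.3 in PCs. Pdcd1lg2, which encodes the sorted CD273, was at 2.59 in it, against 43.3 and 24.4 and 0 to 2.84 in PCs. The PC markers of MBC replicate 3 summed to 258, against 131 and 92.8 in the other MBC libraries. Its germinal center B cell markers summed to 592 against 208 and 233. Its proliferation markers summed to 703 against 104 and 116 in the other MBC libraries and 369 to 478 in PCs. Its B cell markers summed to 1080, against 1940 and 2920 in the other MBC libraries and 606 to 656 in PCs. Across genes, its Pearson's r with PC libraries was 0.70 to 0.777, and 0.681 and 0.687 with the MBC libraries. MBC replicates 1 and 2 had an r of 0.675 with each other and of 0.537 to 0.564 with PC libraries. MBC replicate 2 held erythroid markers at a sum of 2900 scaled TPM, against 0.32 to 72.6 elsewhere. T cell markers summed to 0, 0 and 1.08 in MBCs and to 14.6 to 35.2 in PCs, with 2 of 2 tested genes higher in PCs, Cd8a at 0 in 6 libraries and Cd3g at 0 in 4. Myeloid markers summed to 2.32 to 29.0 in MBCs and 2.15 to 7.68 in PCs, and platelet markers to at most 4.58. The part of these markers in the results was not tested, and results are given with and without MBC replicate 3. In bulk samples, fewer cells of a type and less RNA per cell cannot be told apart.

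ERAD genes that were higher in PCs lay mostly in substrate recognition and in the membrane complex, 6 and 7 genes, and none was a cytosolic holdase or shuttle. Of the 38 members that passed the filter on low values, 17 rose in PCs and 0 fell, by limma with a Benjamini-Hochberg adjusted p under 0.05 and a log2 fold change of at least 1. That is 44.7% of the members tested, where 6.41% of all 11573 genes tested were called higher and 2.14% lower. The median log2 fold change of the members was 1.17, against 0.14 over all genes tested. The fold change was above 0 in 36 members and below 0 in 2. In 19 members every PC library lay above every MBC library, where the same held for 13.0% of all genes tested. Svip, a small protein that binds p97, was the 1 member not tested, listed at 0 in 6 libraries and at 0.0146 scaled TPM in MBC replicate 3.

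The library titles carry 1 of 2 prefixes whose meaning the labels do not give, and within the more frequent one (MBC replicates 1 and 2, PC replicates 1 to 3) 15 members were called higher, against 9.89% of all genes in that fit. Without MBC replicate 3 the 17 members remained called and Ube2g2 joined them, giving 18 called higher, against a background of 15.1% of 10748 genes. As deposited, without scaling, the median log2 fold change of all genes was -0.91. On that scale 9 members were called higher, against 4.08% of all genes, and 2 were called lower (Bag6 and Rad23b), against 26.1% of all genes. Edem1, Edem3, Os9, Syvn1, Derl1, Ube2j1, Rnf103 and Vcp lost their calls on it. The median of the members was -0.06 there, which is 0.85 above that of all genes. Over all settings tried, the median of the members lay 0.85 to 1.34 above the median of all genes. The split of calls over all genes also moved with the scaling, from 742 higher and 248 lower to 472 and 3018 as deposited, 393 and 431 with immunoglobulin genes removed, and 675 and 460 after quantile normalization.

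As a share of TPM outside immunoglobulin genes, the members took 0.13%, 0.175% and 0.161% in the respective MBC libraries. In the PC libraries, in order of replicate, they took 0.496%, 0.546%, 0.619% and 0.486%. The groups did not overlap, averaging 0.155% ± 0.0231 (SD, n = 3) in MBCs against 0.537% ± 0.0607 (SD, n = 4) in PCs, which is 3.46 times as much. With immunoglobulin genes kept in the total it was 1.69 times as much. The 3 most abundant members held 28.9 to 33.4% of the summed scaled TPM of the members in PCs and 29.5 to 40.6% in MBCs. Syvn1 was among the 3 in all 7 libraries. Edem1 was among them in the 4 PC libraries and in MBC replicate 2, and Vcp in the 3 MBC libraries.

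**Figure D2:**
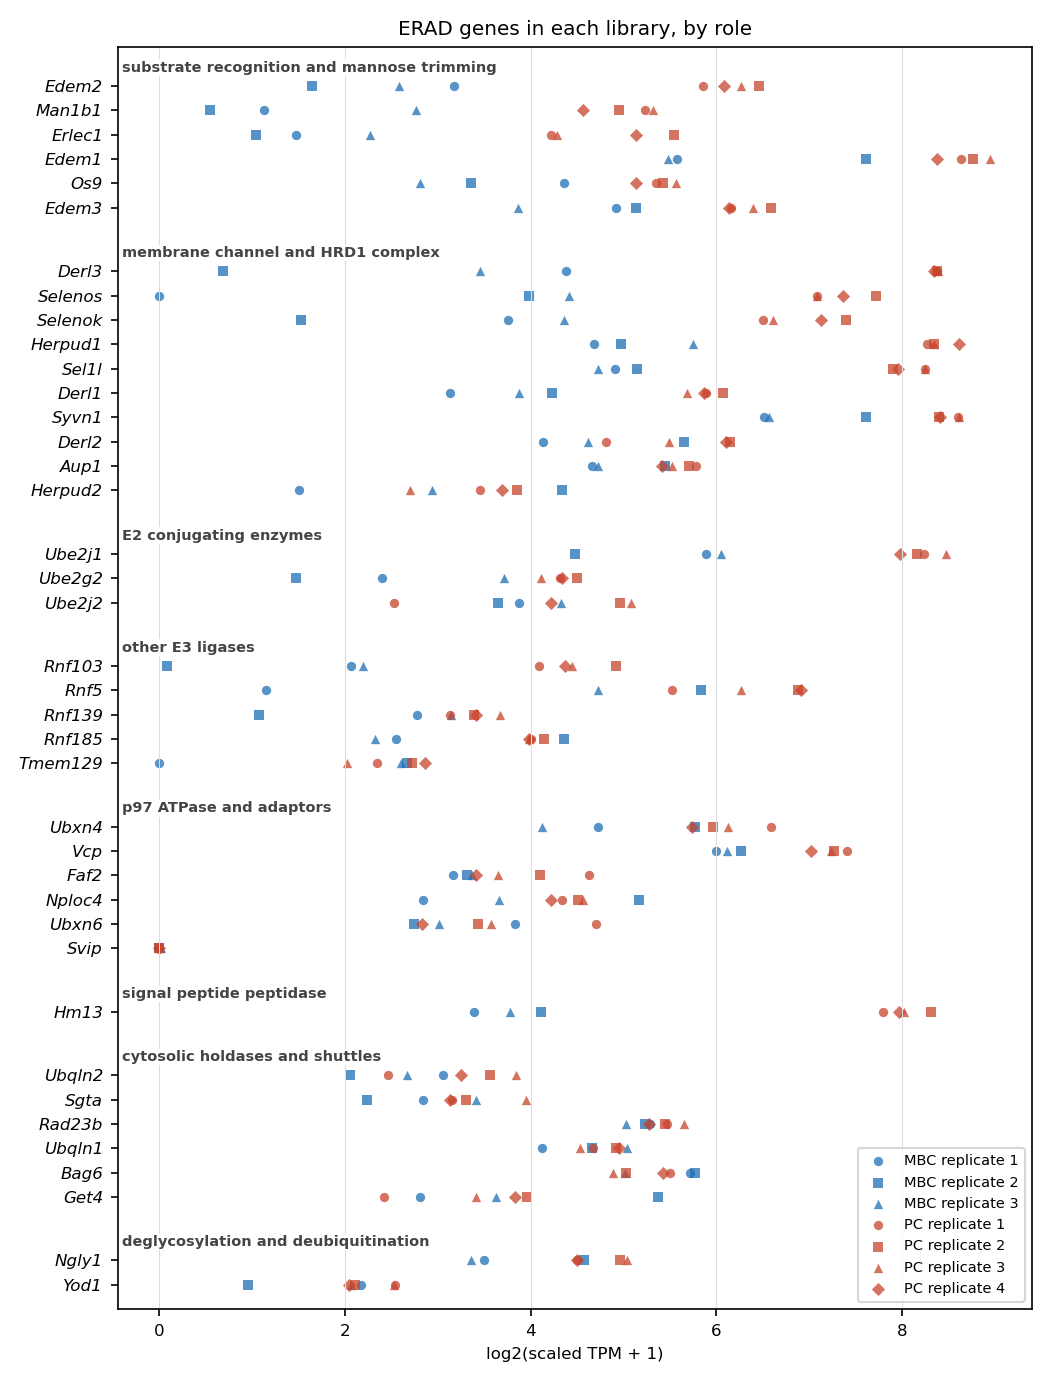
Level of each of the 39 ERAD genes in each library as log2(scaled TPM + 1), with blue points for the 3 MBC libraries and red for the 4 PC libraries, grouped by role. Red points lie to the right of blue points in all 6 recognition genes, while the groups overlap in all 6 cytosolic holdases and shuttles.

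All 6 genes of substrate recognition and mannose trimming rose in PCs, with a median log2 fold change of 2.83. Edem2, a mannosidase-like protein that starts glycan trimming of misfolded proteins, was at 8.01, 2.13 and 4.99 scaled TPM in the MBC libraries, given here and below in order of replicate, and at 56.9, 87.0, 76.2 and 66.6 in the PC libraries. Every PC library lay above every MBC library, and the log2 fold change was 3.70 (SE 0.44; limma adjusted p = 0.000686). Man1b1, the ER mannosidase that trims the same glycans, was at 1.19, 0.465 and 5.79 scaled TPM in MBCs and at 36.7, 29.9, 38.9 and 22.6 in PCs. MBC replicate 3 was the highest MBC library, still below all PC libraries, and the log2 fold change was 3.53 (SE 0.58; limma adjusted p = 0.00473). Erlec1, a lectin that binds trimmed glycans, was at 1.78, 1.06 and 3.84 scaled TPM in MBCs and at 17.6, 45.5, 18.5 and 34.2 in PCs. PC replicates 2 and 4 were the high ones, the groups did not overlap, and the log2 fold change was 3.20 (SE 0.53; limma adjusted p = 0.00506).

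The other 3 genes of this group changed less. Edem1, a paralog of Edem2, averaged 95.3 ± 86.7 scaled TPM (SD, n = 3) among MBCs, against 414 ± 68.0 (SD, n = 4) among PCs. Its log2 fold change was 2.46, and its high MBC library was replicate 2, at 195.4. Os9, the second lectin, had means of 11.6 ± 7.08 (SD, n = 3) and 40.5 ± 5.09 (SD, n = 4) scaled TPM and a log2 fold change of 1.86. Edem3, the remaining paralog, had means of 25.6 ± 10.8 (SD, n = 3) and 79.6 ± 12.0 (SD, n = 4) scaled TPM and a log2 fold change of 1.68. These 3 calls were lost when single libraries were left out. By limma, the adjusted p of Edem1 was 0.0665 without MBC replicate 1 and 0.053 without PC replicate 3. That of Edem3 was 0.0551, 0.0958, 0.0787 and 0.0677 without PC replicates 1 to 4 in turn. That of Os9 was 0.0662 without MBC replicate 2 and 0.0695, 0.0967, 0.0905 and 0.0724 without PC replicates 1 to 4 in turn.

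Of the 10 genes of the membrane channel and HRD1 complex, 7 rose in PCs, with a median log2 fold change of 2.65 over all 10. Derl3, a Derlin of the membrane channel whose promoter is shown above, was at 19.8, 0.607 and 9.93 scaled TPM in MBCs and at 331, 330.4, 334 and 324 in PCs. The PC libraries were nearly level while the MBC libraries were spread widely, and the log2 fold change was 5.53 (SE 0.73; limma adjusted p = 0.00132). Selenos, a selenoprotein that recruits p97 to the membrane, was listed at 0 in MBC replicate 1, at 14.9 and 20.4 scaled TPM in MBC replicates 2 and 3, and at 135, 210.5, 135 and 163 in PCs. The groups did not overlap, and the log2 fold change was 4.51 (SE 0.91; limma adjusted p = 0.0145). Selenok, a selenoprotein that binds Derlins, was at 12.5, 1.88 and 19.5 scaled TPM in MBCs and at 90.0, 167, 96.7 and 139 in PCs. MBC replicate 2 was the lowest library, the groups did not overlap, and the log2 fold change was 3.70 (SE 0.63; limma adjusted p = 0.0056). Selenos was not called with a pseudocount of 0.1 (adjusted p = 0.0732).

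Herpud1, which joins the parts of the HRD1 complex and is known as an early gene of ER stress, averaged 35.9 ± 14.8 scaled TPM (SD, n = 3) among MBCs, against 337 ± 37.1 (SD, n = 4) among PCs, with a log2 fold change of 3.26. Sel1l, the adaptor that holds HRD1 and its substrate lectins together, had means of 29.6 ± 4.48 (SD, n = 3) and 273 ± 34.8 (SD, n = 4) scaled TPM and a log2 fold change of 3.16. Derl1, a second Derlin, had means of 13.1 ± 5.03 (SD, n = 3) and 58.1 ± 6.45 (SD, n = 4) scaled TPM and a log2 fold change of 2.13. Syvn1, which encodes HRD1 itself, had the smallest change among the 7. Its means were 126 ± 59.0 (SD, n = 3) and 363 ± 30.0 (SD, n = 4) scaled TPM, and its log2 fold change was 1.61. By limma, Syvn1 had an adjusted p of 0.07 without MBC replicate 1 and of 0.0541, 0.0581 and 0.0529 without PC replicates 2, 3 and 4. Its log2 fold change was 0.29 as deposited, without scaling (limma adjusted p = 0.518). After quantile normalization it was 0.90 (limma adjusted p = 0.142). Derl2, Aup1, which recruits an E2 to the membrane, and Herpud2, a homolog of Herpud1, were not called. Their log2 fold changes were 0.83, 0.66 and 0.50, and the groups overlapped in each.

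**Figure D3:**
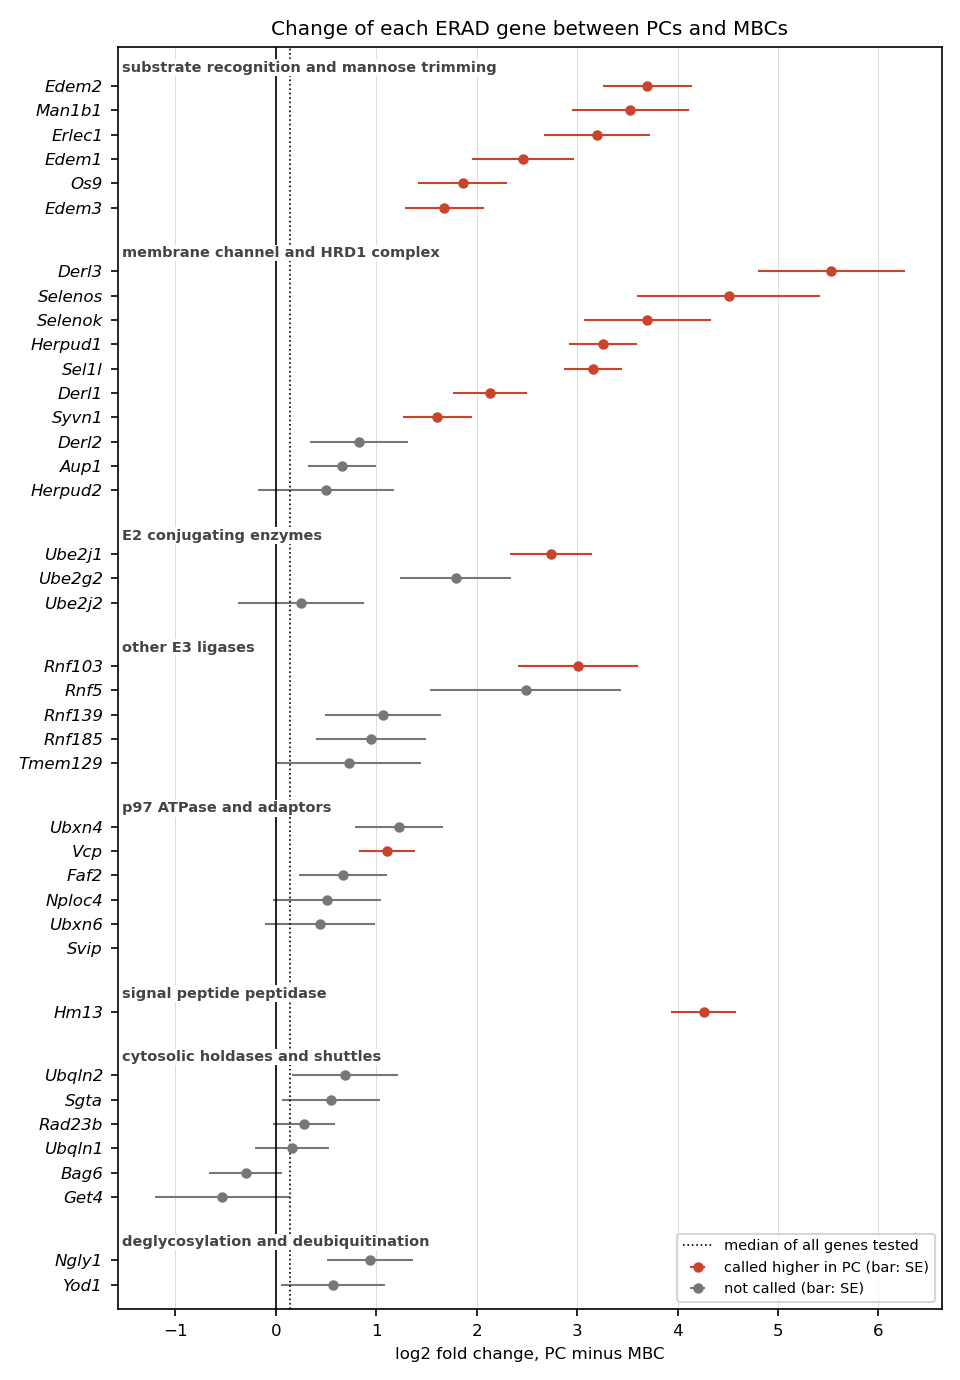
Log2 fold change of each ERAD gene, PC minus MBC, on the log2(scaled TPM + 1) scale with bars of 1 SE, grouped by role; red marks genes called higher in PCs and the dotted line the median of all genes tested, 0.14. The called genes gather in the recognition and membrane groups at the top, and Derl3 has the largest value, 5.53.

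Levels of partner genes and paralogs were next compared as ratios of TPM within a library, which no scaling changes. The 10 pairs were chosen after the data were seen. The Sel1l to Syvn1 ratio was 0.321, 0.177 and 0.272 in the MBC libraries, against 0.782, 0.709, 0.776 and 0.732 in the PC libraries. The transcripts of the adaptor and the ligase were thus closer to level in every PC library than in any MBC library. The log2 difference was 1.59, with an exact two-sided permutation p of 0.0571 (adjusted over 10 pairs, 0.0816). This p is the smallest that 3 against 4 libraries allow with the tail doubled, so the design cannot reach 0.05 with this test. The groups did not overlap in 7 of the 10 pairs, all at this p. In each of the 7 the first gene was a called member with a larger log2 fold change than the second. These ratios are thus not independent of the calls above, and no share over other gene pairs was computed.

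Among the Derlins, Derl3 made up 44.8%, 0.894% and 21.0% of the family's TPM in the MBC libraries. In the PC libraries it made up 79.5%, 70.8%, 77.9% and 72.2%. Derl2 was the largest or second largest member in MBCs, at 37.6 to 72.9%, and took 6.51 to 15.1% in PCs. The Derl3 to Derl2 ratio differed by 5.21, the Derl3 to Derl1 ratio by 3.84 and the Derl1 to Derl2 ratio by 1.37 on the log2 scale, with no overlap in any of these pairs. Among the Edem genes, Edem1 was the largest in every library, at 55.7 to 84.3% in MBCs and 70.4 to 75.7% in PCs. Edem2 took 0.919 to 9.55% in MBCs and 10.9 to 14.2% in PCs. The Edem2 to Edem3 ratio differed by 2.28 without overlap, while the Edem2 to Edem1 and Edem3 to Edem1 ratios overlapped between groups (exact permutation p = 0.171 and 0.229; adjusted, 0.214 and 0.254). The Herpud1 to Herpud2 ratio differed by 2.65 and the Ube2j1 to Ube2j2 ratio by 2.54 without overlap. The Ubqln1 to Ubqln2 ratio overlapped, at a log2 difference of -0.63 (exact permutation p = 0.4; adjusted, 0.4).

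**Figure D4:**
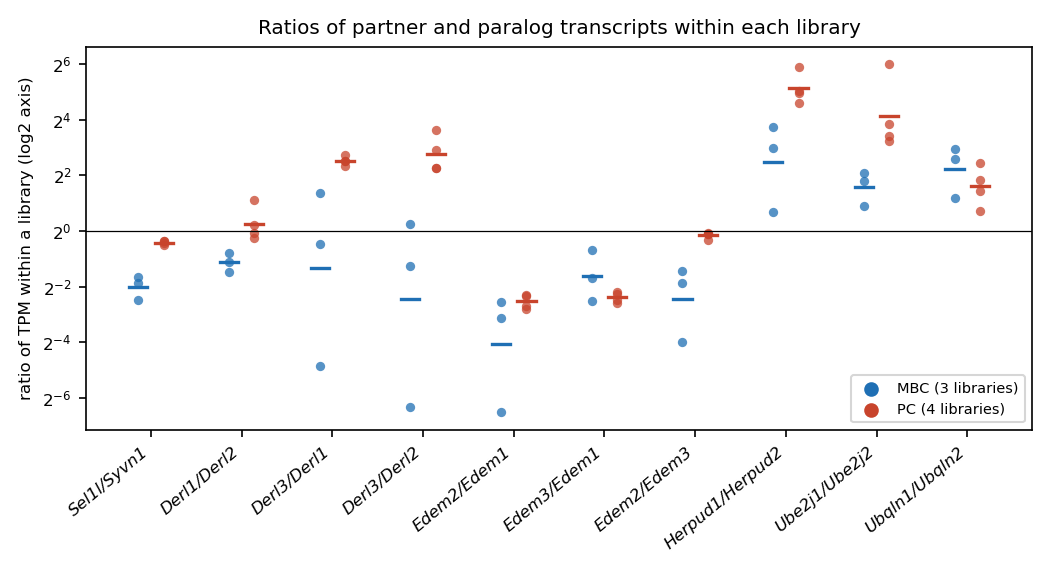
Ratio of TPM of 10 pairs of ERAD genes within each library on a log2 axis, with blue points for 3 MBC libraries, red points for 4 PC libraries and bars at the mean of the log2 values. The Sel1l to Syvn1 ratio is 0.177 to 0.321 in MBCs and 0.709 to 0.782 in PCs, and 3 pairs overlap between the groups.

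Of the 3 E2 enzymes, 1 rose. Ube2j1, the membrane-anchored E2 that works with HRD1 and whose promoter holds a UPRE, was at 58.2, 21.3 and 65.4 scaled TPM in MBCs and at 301, 285, 354 and 252 in PCs. The groups were well apart, and the log2 fold change was 2.74 (SE 0.41; limma adjusted p = 0.00291). Ube2g2, the E2 recruited by Aup1, was at 4.29, 1.79 and 12.1 scaled TPM in MBCs and at 18.9, 21.6, 16.4 and 19.2 in PCs. Its groups did not overlap either, but its log2 fold change of 1.79 had an adjusted p of 0.0836 by limma, and without MBC replicate 3 it was 2.34 with an adjusted p of 0.00849. Ube2j2, the paralog of Ube2j1, had a log2 fold change of 0.25 and means of 14.8 ± 3.89 (SD, n = 3) and 21.4 ± 12.9 (SD, n = 4) scaled TPM.

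Of the 5 other E3 ligases, 1 rose, and the median log2 fold change was 1.07. Rnf103, an ER membrane ligase, was at 3.18, 0.0607 and 3.59 scaled TPM in MBCs and at 16.04, 29.3, 20.7 and 19.6 in PCs. MBC replicate 2 was near 0 and the groups did not overlap, and the change was 3.01 on the log2 scale (SE 0.60; limma adjusted p = 0.0143). Without PC replicates 2, 3 and 4 in turn its adjusted p was 0.0645, 0.0503 and 0.0513. Rnf5, a membrane-anchored ligase, ranged from 1.22 to 56.0 scaled TPM in MBCs and from 45.1 to 120 in PCs, with a log2 fold change of 2.49 and an adjusted p of 0.144 by limma. Rnf139, Rnf185 and Tmem129, also ER membrane ligases, had log2 fold changes of 1.07, 0.95 and 0.73 and were not called. Tmem129 was listed at 0 in MBC replicate 1 and at 5.34 and 5.10 scaled TPM in the other MBC libraries, against 3.06 to 6.27 in PCs. Without MBC replicate 2, Rnf185 was called at 1.56 (limma adjusted p = 0.0454).

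Among the p97 ATPase and its adaptors, 1 of the 5 genes tested rose, with a median log2 fold change of 0.67. Vcp, which encodes p97, was at 63.0, 75.8 and 68.3 scaled TPM in MBCs and at 169, 154, 149 and 129 in PCs. Libraries of each group were close together and the groups did not overlap, and the change was 1.11 on the log2 scale (SE 0.28; limma adjusted p = 0.0407). As deposited, without scaling, its log2 fold change was -0.20 (adjusted p = 0.619 by limma) and the groups overlapped. The scaled change was the smallest called among the members, and it was past the threshold in 1 of the 7 fits that left out a library, that without MBC replicate 3. In the other 6 its adjusted p was 0.0563 to 0.133, lowest without MBC replicate 2 and highest without PC replicate 2. Ubxn4, Faf2, Nploc4 and Ubxn6, adaptors and cofactors of p97, had log2 fold changes of 1.23, 0.67, 0.51 and 0.44 and were not called. Without MBC replicate 2, Ubxn4 was called at 1.65 (limma adjusted p = 0.034).

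Hm13, the signal peptide peptidase that cuts signal peptides left in the membrane, was at 9.52, 16.3 and 12.7 scaled TPM in MBCs and at 221, 317, 260 and 249.2 in PCs. Its MBC libraries lay close together, far below the PC libraries, and its log2 fold change was 4.26 (SE 0.32; limma adjusted p = 5.8e-05). The adjusted p was the smallest of the members. A long noncoding RNA on the opposite strand shares 760 exon bases with Hm13, and whether counting used strand is not stated. Exon bases are shared with another gene in 13 members, among them Man1b1, Syvn1 and Vcp of those called.

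None of the 6 holdases and shuttles, which keep extracted proteins soluble and carry them to the proteasome, was called by limma. Of the 6, 0 had an unadjusted p under 0.05 by limma, where 24.2% of all genes tested did. The median log2 fold change of the 6 was 0.22. Ubqln2, Sgta, Rad23b and Ubqln1 had log2 fold changes of 0.69, 0.55, 0.28 and 0.16. Bag6 and Get4, which also serve the insertion of tail-anchored proteins, had -0.30 and -0.53 and were the 2 members below 0. Get4 was at 40.5 scaled TPM in MBC replicate 2, above all other libraries, and its log2 fold change was 0.16 without that library. Ngly1, which removes sugars from extracted glycoproteins, and Yod1, a deubiquitinase that works with p97, had log2 fold changes of 0.94 and 0.57 and were not called. As deposited, without scaling, Bag6 was called lower at -1.59 (limma adjusted p = 0.00848) and Rad23b at -1.01 (adjusted p = 0.0425).

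Replicates differed more among MBCs than among PCs. The median SD of log2(scaled TPM + 1) over the members tested was 0.725 in MBCs and 0.262 in PCs, against 0.912 and 0.472 over all genes tested. The SD was larger in MBCs in 31 of the 38 members, and in 77.5% of all genes tested. Among the 17 members that rose, MBC replicate 3 was the highest MBC library in 7 and the lowest in 4.

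The members were set beside related genes, in lists that were also chosen with earlier results of these data known. Of 44 other ERAD genes tested, 2 rose in PCs and 0 fell, 4.55%, near the background of 6.41%, and the median log2 fold change was 0.59. The 2 were Dnajb9, an ER co-chaperone, at 3.52 (SE 0.54; limma adjusted p = 0.0031), and Txndc11, an ER thioredoxin-like protein that works with the EDEM proteins, at 3.13 (SE 0.35; limma adjusted p = 0.00046). Dnajb9 was at 4.72 to 32.3 scaled TPM in MBCs and 127.5 to 162 in PCs, and Txndc11 at 18.4 to 32.1 and 173 to 313. Without MBC replicate 3, 8 of 42 other ERAD genes were called higher and 3 lower. In that fit 1624 of all 10748 genes tested (15.1%) were called higher and 881 lower.

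Of the 8 factors of the unfolded protein response, 6 rose in PCs, against 6.41% of all genes tested. The median log2 fold change of the 8 was 2.62. Xbp1, the factor made active by splicing, was at 58.3, 56.0 and 35.9 scaled TPM in MBCs and at 751, 1041, 756 and 843 in PCs, and the change was 4.07 on the log2 scale (SE 0.31; limma adjusted p = 5.8e-05). Creb3l2, an ER-anchored factor, was at 0.971 scaled TPM, listed at 0 and at 0.112 in MBCs, and at 112, 75.6, 101 and 65.5 in PCs. It rose by 6.08 on the log2 scale, with an adjusted p of 5.4e-05 by limma. Ern1, the sensor that splices Xbp1, was at 9.41 scaled TPM, listed at 0 and at 0.843 in MBCs and at 19.9 to 56.0 in PCs, a log2 fold change of 3.71. Atf4, Ddit3 and Atf6, which are factors of the stress response, rose by log2 fold changes of 2.65, 2.59 and 1.79. Atf6b, a paralog of Atf6, and Eif2ak3, the sensor that acts on translation, were not called, at 1.48 and 0.24. Xbp1 and Creb3l2 kept their calls in every setting tried. The number called fell to 4, 3, 2, 3, 3 and 3 when MBC replicate 1, MBC replicate 2 and PC replicates 1 to 4 were left out in turn. In those fits 4.03 to 5.58% of all genes were called higher. The number was 7 without MBC replicate 3, where 15.1% of all genes were called higher.

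No gene of either proteasome list was called, and other proteasome genes were not examined. Of the 14 listed subunits of the 20S core, 0 were called by limma and 5 (35.7%) had an unadjusted p under 0.05. Of the 17 listed subunits of the 19S regulatory particle, 0 were called by limma and 3 (17.6%) had an unadjusted p under 0.05. All 8 had fold changes above 0. Over all genes tested, 24.2% had an unadjusted p under 0.05 by limma, 1770 higher and 1033 lower. The median log2 fold changes of the core and the regulatory particle were 1.02 and 0.73. The smallest and largest were Psma4 at 0.03 and Psmb4 at 3.20 in the core, and Psmc5 at -0.13 and Psmd7 at 1.77 in the regulatory particle. Psmb4 was at 0.445 scaled TPM in MBC replicate 2 and at 26.9 and 119 in the other MBC libraries. Without MBC replicate 3, 6 core and 5 regulatory subunits were called higher, against the background of 15.1%. Differences between these lists were not tested.

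**Figure D5:**
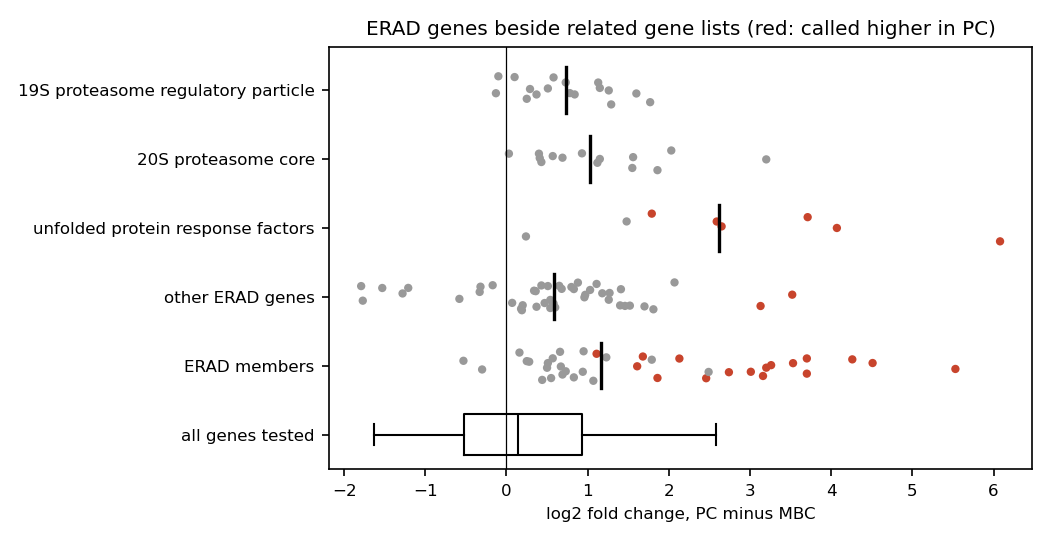
Log2 fold change, PC minus MBC, of each tested gene in the ERAD members and 4 related lists, with red points for genes called higher in PCs, black bars at list medians, random vertical jitter, and a box (quartiles, median and whiskers at the 5th and 95th percentiles) for all genes tested. Called genes number 17 of 38 among the ERAD members, 2 of 44 among other ERAD genes, 6 of 8 among unfolded protein response factors and 0 in both proteasome lists. Of all genes tested, 6.41% were called higher.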

How the data were processed

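RNA from 3 MBC and 4 PC libraries, amplified with a Nugen cDNA kit, was sequenced on an Illumina HiSeq. The authors deposited TPM for 48795 Ensembl genes; the submitters' processing notes name STAR 2.5.2a, RSEM 1.3.0, DESeq2 1.18.1 and GRCm38, without roles. TPM holds no read totals, so the depth behind a value is unknown, and immunoglobulin transcripts lower all other values of a library. Genes above 0 numbered 12983, 11527 and 18061 in MBC replicates 1 to 3. In PC replicates 1 to 4 they numbered 14463, 16768, 14884 and 16138. The part of this in low MBC values was not tested. Groups came from the sample descriptions, which do not say whether libraries came from separate animals, so p-values measure only the spread between these libraries. The titles also carry codes whose meaning the labels do not give. MBC replicates 1, 2 and 3 share a code with PC replicates 1, 3 and 4 in turn. The main fit ignores these codes, and with a block by code 11 members were called higher. Gene symbols came from GENCODE M21 for 48349 genes.

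Scaled TPM is TPM over the library's median ratio to the geometric mean of the 9305 genes that no library lists at 0. After a filter of 1 TPM in at least 3 libraries, 11573 genes entered limma 3.58.1 (R 4.3.3; eBayes with a trend, no covariate) as log2(scaled TPM + 1), a scale on which fold changes of low genes are understated. Calls needed a Benjamini-Hochberg adjusted p under 0.05 and a log2 change of at least 1 in either direction. On simulated data for the PC against MBC comparison (10745 genes), 83 of 100 genes changed by 4 and 44 of 100 changed by 2 on the log2 scale were called, and 4 of 10545 unchanged genes. The simulation gave both groups the same spread and changed only genes of higher mean level. In the data the median SD was 0.912 in MBCs and 0.472 in PCs, so these rates need not hold there or for low genes. Ratios were tested with scipy 1.17.1 by exact two-sided permutation over 35 assignments, with the smaller tail doubled. In all, 20 alternative fits were made.

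The members and lists were chosen with earlier results of these data known. All members were named. Called members with 1 of the 3 largest changes of their role are given in every library; the remaining called members by means. Every unfolded protein response gene, the called other ERAD genes and the extremes of the proteasome lists were named. Promoters and start sites came from RefSeq GRCm38.p6. Protein sequences were not used here.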

Additional observations from a re-analysis of the deposited data

Results flagged for a closer look

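A single PC library stood far from the other PC libraries in 2 of 64 results examined, where chance flags about 1 in 20 groups, or 3.2 here. Sgta was at 14.41 scaled TPM in PC replicate 3 and at 7.75 to 8.87 in the others. The Ube2j1 to Ube2j2 ratio was 63.17 in PC replicate 1 and 9.46 to 14.32 in the others, with Ube2j2 at 4.77 scaled TPM in that library and 17.6 to 32.97 in the others. MBCs, with 3 libraries, were not examined in this way.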

How the results depend on the processing

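Of the 17 members called higher, 11 stayed called whichever of the 7 libraries was left out, and 7 (Edem2, Man1b1, Sel1l, Derl3, Herpud1, Selenok and Hm13) in all 20 alternatives. Members called higher numbered 11 to 18 with 1 library left out, lowest without PC replicate 3, where 4.54% of all genes were called higher. That share was 4.03% without PC replicate 2 and 15.1% without MBC replicate 3, the lowest and highest of these fits. As deposited, without scaling, they numbered 9, with 2 called lower, 12 members did not overlap, and the median log2 fold change was -0.06, against 1.17. With a pseudocount of 0.1 that median was 1.47. The difference in the members' share of TPM outside immunoglobulin genes, 0.381 percentage points, was 0.104 with all TPM in the total and 0.439 with mitochondrial genome genes also left out.

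With a replicate block by title code 11 members were called, and by replicate number 10; all were among the 17. Edem3, Os9, Syvn1, Derl1, Rnf103 and Vcp were not called with either block, nor Erlec1 with that by number, and Derl1 had adjusted p-values of 0.0553 and 0.0715 by limma. Over all genes these fits called 434 higher and 83 lower, and 390 and 60. The check of pairing gave correlations of deviations of 0.109, -0.004 and 0.222 for shared codes and 0.109, -0.04 and -0.083 for shared numbers, so not every pair passed 0.1. MBC replicates 1 and 3 correlated best with the PC library of their code and replicate 2 did not.

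As deposited, without scaling, the median log2 fold change of all genes was -0.91, and which scale is nearer to the cells was not tested. On that scale log2 fold changes turned negative for Derl2 (-0.45), Herpud2 (-0.65), Aup1 (-0.63), Ube2j2 (-0.99), Rnf139 (-0.05), Rnf185 (-0.24), Tmem129 (-0.14), Vcp (-0.20), Nploc4 (-0.73), Faf2 (-0.56), Ubxn4 (-0.06), Ubxn6 (-0.76), Sgta (-0.62), Ubqln1 (-1.12), Ubqln2 (-0.46), Rad23b (-1.01), Ngly1 (-0.31), Yod1 (-0.43), Eif2ak3 (-1.03) and Psma4 (-1.28). With immunoglobulin genes removed, Ube2j2 was -0.03, Ubqln1 -0.12, Eif2ak3 -0.03 and Psma4 -0.26. Psma4 was also -0.14 after quantile normalization, -0.07 and -0.13 with the replicate block by code and by number, and -0.15 within the more frequent title prefix, and Ube2j2 was -0.01 with the block by code. With 1 library left out, Herpud2 ranged from -0.23 to 1.17, Ube2j2 from -0.05 to 0.82, Tmem129 from -0.16 to 1.14, Nploc4 from -0.03 to 1.12, Get4 from -1.11 to 0.16, Ubqln1 from -0.11 to 0.37, Psma4 from -0.24 to 0.27 and Psmc5 from -0.30 to 0.08. Where not stated, the cause was not tested.

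For the ratios, 2 alternatives were added after the data were seen. A two-sided p from the absolute difference, run after the doubled-tail values were known, gave an exact permutation p of 0.0286 and an adjusted p of 0.0408 for the 7 pairs that did not overlap, against 0.0571 and 0.0816; the call at 0.05 therefore depends on this convention, and the doubled tail was kept. With 1 library left out the smallest exact permutation p is 0.1 or 0.133. Low levels in MBCs are the least certain values, since TPM gives no depth.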
